A study of Mus musculus with 4 samples.

Results

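Hepatocyte growth factor (HGF, gene Hgf) and macrophage-stimulating protein (MSP, gene Mst1) are secreted relatives of plasminogen that signal through the receptor tyrosine kinases MET (gene Met) and RON (gene Mst1r). Both ligands are released as inactive single chains and become active when a trypsin-like serine protease cuts them. HGF activator (Hgfac), matriptase (St14) and hepsin (Hpn) can make this cut, prostasin (Prss8) is a membrane-anchored partner of matriptase, and the Kunitz-type inhibitors HAI-1 (Spint1) and HAI-2 (Spint2) restrain these proteases. In the lung HGF comes mainly from mesenchymal cells and acts on the epithelium, where MET is an oncogene in lung cancer, whereas MSP is best known as a plasma protein made by the liver. The 10 genes were chosen for these roles, and all probes whose RefSeq accession belongs to them were taken. This gave 16 probes of 56605 on the array, for 10 of 23787 named genes. All 16 passed the filter on dim spots, which asks for a signal well above background in both samples of a genotype, and 14 did so on all 4 arrays. The genes were chosen by their roles but also on their measured log2 differences between the genotypes, probe by probe, so those differences are given below as descriptions without a test.

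Gene expression was measured in total RNA of lung tumours from KP mice on the C57BL/6J strain, 2 samples from CD109-/- mice and 2 from CD109+/+ mice. KP names a mouse model in which Cre recombinase starts lung adenocarcinomas, and every mouse had received adenoviral Cre through the trachea 88 to 92 days before RNA was taken. CD109-/- replicate 1 was male, and CD109-/- replicate 2 and both CD109+/+ replicates were female. Age, the promoter that drove Cre, the way CD109 was deleted and whether tumours of several animals were pooled are details not given in the sources used here. Since no label states that replicates came from separate animals, the errors measure the spread between these samples only.

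One Agilent array with a single dye was used per sample. Its upper-quartile signal, the 75th percentile, was 672 and 683 for CD109-/- samples and 553 and 664 for CD109+/+ samples. All levels below are log2 signals relative to that percentile. Differences are CD109-/- minus CD109+/+, each with the standard error that limma gave from the arrays (n = 2 per genotype). The signal of a probe also depends on the probe, so levels are compared between arrays and not between genes. The Cd109 probe had measured values of -7.97 and -7.86 in CD109-/- tumours, not well above background, against -3.69 and -4.65 in CD109+/+ tumours, which makes it at least 2.92-fold higher in CD109+/+. Xist stood at -7.97 on the array labelled male and between 0.53 and 0.82 on the 3 labelled female. The surfactant gene Sftpc, which marks alveolar type 2 cells of the lung, gave 8.93 and 8.80 in CD109-/- tumours against 9.12 and 8.97 in CD109+/+ tumours.

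Of the 10 genes, 8 had lower and 2 higher values in CD109-/- tumours, with a median difference of -0.28 against 0.00 over all 16443 tested genes. Mst1 alone differed by more than 1 on the log2 scale. The fit over all 35769 tested probes called 0 at limma's adjusted p of 0.05 (0.0% called), and so 0 of the 16, while 2441 probes (6.82%) and 1 of the 16, Mst1, had an unadjusted p under 0.05. Among the 16 probes, 4 had both CD109-/- arrays below both CD109+/+ arrays (21.2% of all tested probes did) and 2 had both above (16.5%), against 37.7% of all probes in either direction. Counted by the brightest probe of each gene, 4 of 10 lay below (18.2% of all genes) and 1 above (20.3%), against 38.6% of all genes in either direction. Since this contrast entered the choice of the genes, nothing is read from these counts. Without CD109+/+ replicate 2 the split was 6 lower and 4 higher.

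**Figure D1:**
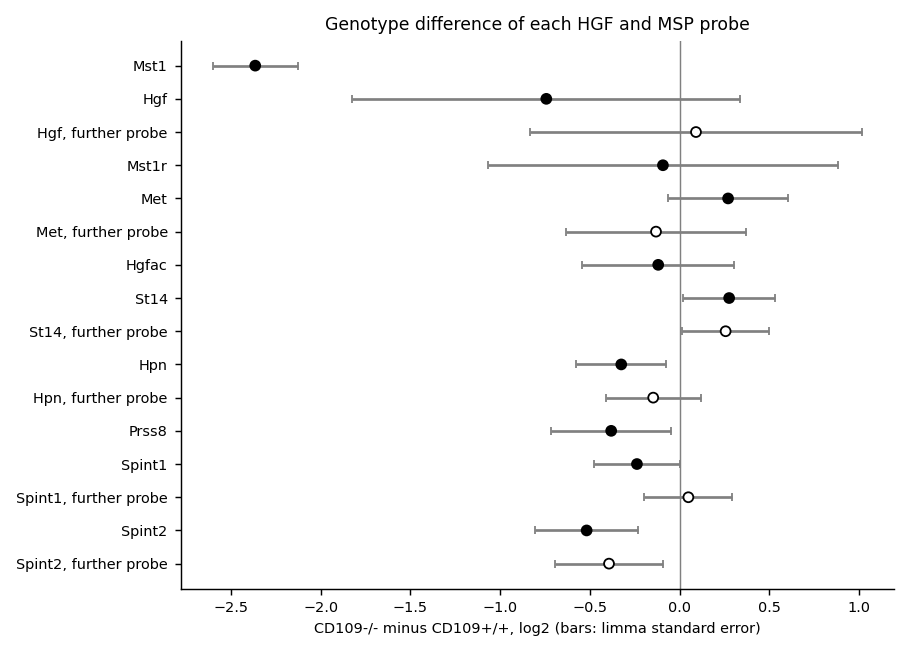
Difference of each probe on the x axis (CD109-/- minus CD109+/+, log2) for the 10 genes on the y axis, with limma's standard error as bars. Filled points are the brightest probe of a gene and open points a further probe. Mst1 lies at -2.36, and the other 15 probes lie between -0.74 and 0.28.

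Mst1, the MSP ligand, was lower in CD109-/- tumours. Its probe gave -3.68 and -3.45 in CD109-/- tumours, against -1.18 and -1.22 in CD109+/+ tumours. The genotypes were separated by a gap of 2.23, while the replicates of a genotype had an SD of 0.16 in CD109-/- and 0.03 in CD109+/+ tumours. As processed signal Mst1 read 52.4 and 62.5 in CD109-/- tumours against 245 and 284 in CD109+/+ tumours, and it was well above background on every array. The difference was -2.36 ± 0.24, equal to a signal 5.15-fold higher in CD109+/+, and 99.5% of tested genes had a smaller absolute difference. This contrast entered the choice of the genes, so that share is a description only. Restricted to the female samples, which leaves out CD109-/- replicate 1 and keeps only replicate 2 of that genotype, the difference was -2.25. Sex and sample cannot be told apart in that value. With normexp background correction of the median signals and an offset of 50 the Mst1 difference was -1.58. This Mst1 is the MSP gene, not the kinase gene Stk4, which shares the name as an alias.

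The start region of Mst1 is shown beside that of Hgfac, a second gene best known from liver, because Mst1 differed between the genotypes and Hgfac did not separate them. Each window runs from 250 bases before to 50 after the RefSeq start, 5′ to 3′ on the plus strand, at chr9:108080186-108080485 for Mst1 and chr5:35041259-35041558 for Hgfac (RefSeq, GRCm38.p6). Capitals mark matches on either strand to CCAAT, the CCAAT box, or to CAAAGTCCA, a site of HNF4.
Mst1: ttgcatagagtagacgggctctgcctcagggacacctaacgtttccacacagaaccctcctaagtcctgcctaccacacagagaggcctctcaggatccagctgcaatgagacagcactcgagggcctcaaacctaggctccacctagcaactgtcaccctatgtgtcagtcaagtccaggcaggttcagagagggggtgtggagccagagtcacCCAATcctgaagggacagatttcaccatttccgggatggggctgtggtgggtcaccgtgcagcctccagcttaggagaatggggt
Hgfac: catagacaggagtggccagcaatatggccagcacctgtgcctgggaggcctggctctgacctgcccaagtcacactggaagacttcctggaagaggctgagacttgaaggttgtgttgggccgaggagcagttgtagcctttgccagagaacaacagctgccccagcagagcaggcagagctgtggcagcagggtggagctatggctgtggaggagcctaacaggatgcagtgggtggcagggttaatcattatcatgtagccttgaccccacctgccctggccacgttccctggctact
The Mst1 window held 1 CCAAT match and 0 of CAAAGTCCA, and the Hgfac window held 0 of either, so no matches overlapped. Of 32851 windows of this kind in the mouse, 37.4% held CCAAT and 0.475% held CAAAGTCCA. Among the 11 windows of the 8 genes that had one, 3 held CCAAT and 0 held CAAAGTCCA. These are matches of letters and do not show binding.

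Genes beside Mst1 on chromosome 9 were read as a comparison of position. The ubiquitin ligase gene Rnf123 differed by -0.22 ± 0.24, with a further probe at -0.17 ± 0.32. Amigo3 differed by -1.30 ± 0.68, with -6.24 and -4.20 in CD109-/- tumours against -3.88 and -3.94 in CD109+/+ tumours, so that its lower values rest mainly on CD109-/- replicate 1, where it was not well above background. On the other side Apeh, which encodes an acylpeptide hydrolase, differed by 0.16 ± 0.22, and no probe was named for Mir7088.

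Among 15047 other named genes, 5 lay closest to Mst1 by the root mean square difference of values centred on each gene's mean over the 4 arrays. The measure uses 4 arrays only and includes the genotype contrast, so likeness of this kind is a description. They were the urea cycle enzyme gene Otc (0.16), the growth factor gene Egf (0.17), Igfals, which carries IGF in plasma (0.23), the secreted liver protein gene Fgl1 (0.28) and the lipid droplet gene Fitm1 (0.29), which was dim in both CD109-/- samples, not well above background. In CD109-/- tumours Otc stood at -5.29 and -5.15 and Igfals at -5.13 and -5.26. Both were well above background, but near the lowest such levels of those arrays, -5.80 and -5.64. Fgl1 stood at 0.62 and 0.47 in CD109-/- tumours against 2.55 and 2.31 in CD109+/+ tumours. Otc, Igfals and Fgl1 are, like Mst1, best known from liver.

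**Figure D2:**
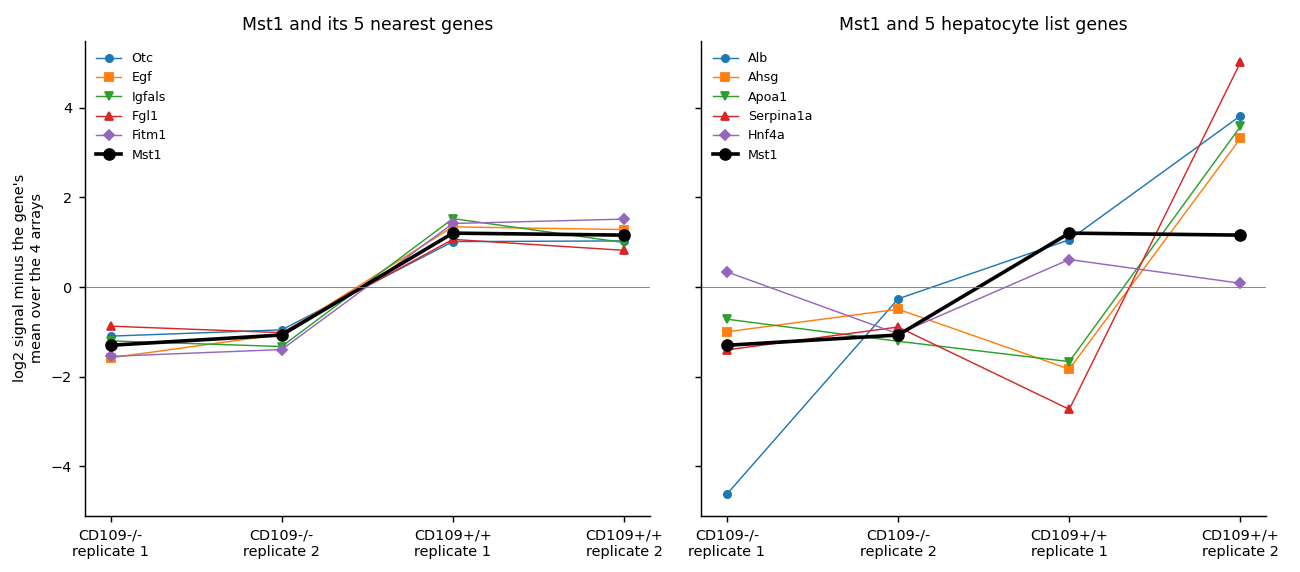
Log2 signal minus the gene's mean over the 4 arrays on the y axis, for each array on the x axis, with lines joining the values of a gene. Mst1 (black) and its 5 nearest genes are low on both CD109-/- arrays and high on both CD109+/+ arrays, whereas Ahsg, Apoa1 and Serpina1a are high on CD109+/+ replicate 2 only.

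Most hepatocyte markers had lower values in CD109-/- tumours. The list holds Otc and Fgl1, named above as near Mst1, so it is no separate observation for those genes. Of 25 on the list 22 were tested, and 19 had lower and 3 higher values in CD109-/- tumours, with 0 past limma's adjusted threshold and 5 at an unadjusted p under 0.05 (7.43% of all genes). The log2 of their summed signal was 4.999 and 4.10 in CD109-/- tumours, against 5.05 and 6.11 in CD109+/+ tumours. On this list 7 of 22 genes were lower without overlap (18.2% of all genes) and 2 higher (20.3%). The 3 with higher values were Fgg (1.49 ± 0.61), Vtn (0.83 ± 0.31) and Ambp (1.29 ± 2.63). The plasma protein genes did not all share the pattern of Mst1. Those named next were picked after their values were seen. Serpina1a, which encodes an antitrypsin, stood at -5.47 and -4.96 in CD109-/- tumours against -6.79 and 0.95 in CD109+/+ tumours, so it was high on CD109+/+ replicate 2 alone. Apoa1 and Ahsg were likewise highest on that array. The albumin gene Alb stood at -3.18 and 1.18 in CD109-/- tumours against 2.49 and 5.26 in CD109+/+ tumours. Serpina3k and Cps1 were not well above background on any array.

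The hepatocyte list's median difference was -1.08 on all 4 arrays and -0.12 without CD109+/+ replicate 2, where 13 of 22 members were lower. Mst1 differed by -2.39 without that array. The hepatocyte transcription factor gene Hnf4a, which was well above background on all arrays, had overlapping genotypes at -0.70 ± 0.52. Less RNA per cell and fewer cells of a type cannot be told apart in bulk tumour RNA, and the part of hepatocyte-type expression in the Mst1 difference was not tested.

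Hgf itself was dim and varied most among the CD109+/+ samples. Its brightest probe gave -4.70 and -4.70 in CD109-/- tumours, against -5.64 and -2.29 in CD109+/+ tumours. The further Hgf probe gave -4.90 and -4.51 in CD109-/- tumours, against -6.21 and -3.39 in CD109+/+ tumours. On both probes the CD109-/- values lay between those of the CD109+/+ samples, and neither probe was well above background on CD109+/+ replicate 1. The differences were -0.74 ± 1.08 and 0.09 ± 0.92, opposite in sign and within their errors. Single CD109+/+ arrays decided the value of the brightest probe. It was -2.42 when replicate 1 of CD109+/+ was left out and 0.93 when replicate 2 was.

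Markers of cells that can make HGF were read beside it. All 11 fibroblast markers had higher values in CD109-/- tumours, with 0 past limma's adjusted threshold, 6 at an unadjusted p under 0.05 (7.43% of all genes) and a median difference of 1.27. Their summed level was 5.89 and 5.85 in CD109-/- tumours, against 5.21 and 5.09 in CD109+/+ tumours. The brightest of them, the collagen gene Col1a2 and the decorin gene Dcn, differed by 0.79 ± 0.33 and 0.40 ± 0.34. Without CD109+/+ replicate 2, 8 fibroblast markers were higher and 3 lower, with a median of 1.19. With normexp the fibroblast median was 0.57. Macrophage markers were higher in 10 of 11 (median 0.61, 4 at an unadjusted p under 0.05, summed level 7.11 and 6.77 in CD109-/- tumours, against 6.40 and 6.69 in CD109+/+ tumours). The brightest macrophage markers, Itgam and Lyz2, differed by -0.50 ± 0.25 and 1.26 ± 0.59, and Itgam was lower without overlap. The genotypes overlapped on both Hgf probes. The part of these cell types in the values of Hgf was not tested.

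**Figure D3:**
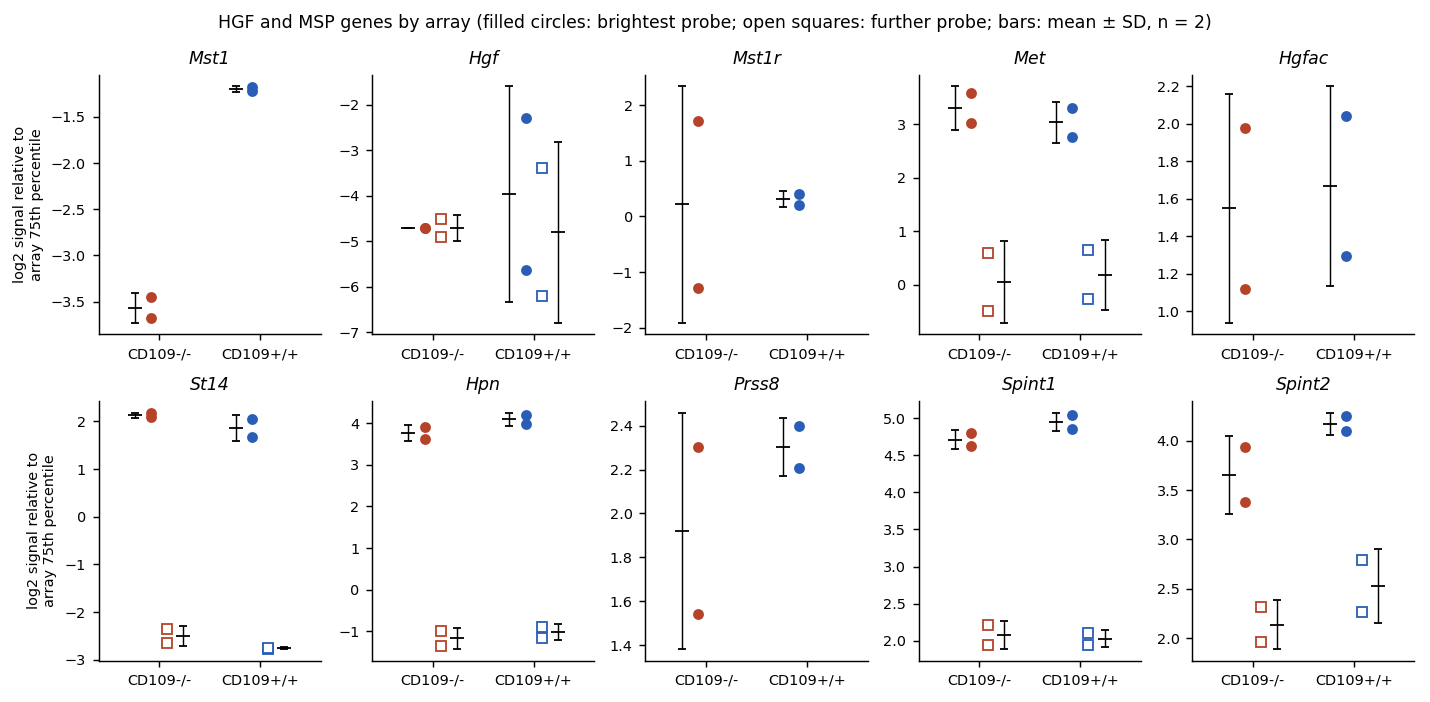
Log2 signal relative to the array's 75th percentile on the y axis for each gene, with a scale of its own per panel, by genotype on the x axis (CD109-/- red, CD109+/+ blue). Points are arrays, filled for the brightest and open for a further probe, and black bars are mean ± SD (n = 2). Mst1 is separated by genotype, Hgf is spread in CD109+/+ and Mst1r in CD109-/- tumours.

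Of the receptors, Mst1r, which encodes the MSP receptor RON, had the widest spread within CD109-/- tumours. It stood at 1.72 and -1.29 in CD109-/- tumours, against 0.21 and 0.41 in CD109+/+ tumours. The CD109-/- samples lay on either side of both CD109+/+ samples, so the mean difference of -0.09 ± 0.98 describes neither of them. The Mst1r difference was -1.60 among females, without the male CD109-/- replicate 1, and 1.41 when CD109-/- replicate 2 was left out instead. Sex and sample cannot be told apart here, since only 1 sample was male.

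The median level of epithelial markers differed between the same CD109-/- samples, while their summed level also differed between the CD109+/+ samples. The median of the 13 epithelial markers was 4.39 and 3.28 in CD109-/- tumours, against 3.68 and 3.60 in CD109+/+ tumours. Their summed level was 8.86 and 8.31 in CD109-/- tumours, against 9.34 and 8.52 in CD109+/+ tumours. All 13 were well above background on every array, among them the keratin gene Krt18, with 7.71 and 7.26 in CD109-/- tumours against 8.40 and 7.49 in CD109+/+ tumours. Their part in the spread of Mst1r was not tested.

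Met, the HGF receptor, did not separate the genotypes. Its brightest probe gave 3.01 and 3.58 in CD109-/- tumours, against 2.76 and 3.30 in CD109+/+ tumours, and the further probe gave -0.48 and 0.60 in CD109-/- tumours, against -0.27 and 0.65 in CD109+/+ tumours. Values of a genotype lay further apart than the genotype means on both probes. The differences of 0.27 ± 0.33 and -0.13 ± 0.50 were opposite in sign and smaller than their errors.

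The activating proteases differed little. Hgfac, the HGF activator of plasma, gave 1.98 and 1.12 in CD109-/- tumours, against 2.04 and 1.29 in CD109+/+ tumours. Its genotypes overlapped, with SDs of 0.61 in CD109-/- and 0.53 in CD109+/+ tumours and a difference of -0.12 ± 0.42. St14, which encodes matriptase, gave 2.09 and 2.17 in CD109-/- tumours, against 2.05 and 1.66 in CD109+/+ tumours. Both St14 probes were higher without overlap, by 0.28 ± 0.26 and 0.26 ± 0.24, but the gaps between the genotypes were only 0.05 and 0.10.

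Hpn, the gene of the membrane protease hepsin, gave 3.90 and 3.62 in CD109-/- tumours, against 4.20 and 3.97 in CD109+/+ tumours. The difference was -0.33 ± 0.25 with a gap of 0.07, and the further Hpn probe overlapped at -0.15 ± 0.26. Hpn is also best known from liver. Prss8, the prostasin gene, gave 1.54 and 2.30 in CD109-/- tumours, against 2.21 and 2.40 in CD109+/+ tumours. Its difference of -0.38 ± 0.33 rested on CD109-/- replicate 1, and without that array it was 0.00.

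Of the inhibitors, Spint2, the HAI-2 gene, had the larger difference, and both of its probes were lower. Its brightest probe gave 3.93 and 3.38 in CD109-/- tumours, against 4.25 and 4.09 in CD109+/+ tumours. These did not overlap, with a gap of 0.16 and a difference of -0.52 ± 0.29, while the further Spint2 probe overlapped at -0.39 ± 0.30. Without CD109-/- replicate 2 the difference of the brightest probe was -0.24. Spint1, the HAI-1 gene, gave 4.62 and 4.80 in CD109-/- tumours, against 4.86 and 5.04 in CD109+/+ tumours, a difference of -0.24 ± 0.24, and its further probe gave 0.05 ± 0.24 with the opposite sign.

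Of the 6 genes with 2 probes, the probes had the same sign in 3 (St14, Hpn and Spint2) and opposite signs in the other 3 (Hgf, Met and Spint1). Mst1, Mst1r, Hgfac and Prss8 had a single probe each, so their values have no second probe to be set against.

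The wider pathway was read from lists of neighbouring genes, which were chosen with earlier results of these arrays known. No gene of any list passed limma's adjusted threshold (0.0% of all genes did), and genes are named by the largest absolute moderated t in their list. Of 20 adaptors and effectors of the receptors, 12 had higher and 8 lower values, with a median of 0.05 and 0 at an unadjusted p under 0.05 (7.43% of all genes). The phosphoinositide kinase gene Pik3cb gave -0.17 and -0.20 in CD109-/- tumours against -0.82 and -0.57 in CD109+/+ tumours (0.51 ± 0.24), and the adaptor gene Gab2 differed by 0.42 ± 0.27.

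Of 15 genes of receptor partners, 8 had higher and 7 lower values, with a median of 0.00. The receptor gene Egfr stood at -0.29 and -1.91 in CD109-/- tumours against -2.63 and -2.30 in CD109+/+ tumours, a difference of 1.37 ± 0.57. The co-receptor gene Nrp1 differed by 0.63 ± 0.29. Among 13 negative regulators 8 had higher and 5 lower values, with a median of 0.25 and 1 at an unadjusted p under 0.05. That was the phosphatase gene Ptpn1, with 3.78 and 3.81 in CD109-/- tumours against 3.14 and 3.22 in CD109+/+ tumours (0.61 ± 0.23), and the phosphatase gene Ptprb, found in endothelium, differed by 0.46 ± 0.27.

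Of 21 other trypsin-like proteases, 14 were tested, with 8 higher and 6 lower values and a median of 0.11. Plg, the gene of the plasmin precursor and a relative of the ligands, stood at -6.46 and -6.21 in CD109-/- tumours, not well above background, against -5.24 and -4.59 in CD109+/+ tumours. Its signal was thus at least 1.74-fold higher in CD109+/+ (limma adjusted p = 0.58 over all probes). F2, the prothrombin gene, stood at -3.66 and -5.79 in CD109-/- tumours, against -1.51 and -3.62 in CD109+/+ tumours. It was not well above background in CD109-/- replicate 2, and the gap between the genotypes was only 0.04. F12, whose product activates plasma kallikrein, was not well above background on any array.

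Of 20 other inhibitors of such proteases, 15 were tested, with 10 higher and 5 lower values and a median of 0.32. Serping1, the C1 inhibitor gene, stood at 2.36 and 2.59 in CD109-/- tumours against 0.87 and 1.41 in CD109+/+ tumours, a difference of 1.34 ± 0.29. Tfpi, which restrains tissue factor, differed by 0.62 ± 0.25. On this list 7 of 15 genes were higher without overlap and 1 lower, against 20.3% and 18.2% of all genes. Higher without overlap were 4 of 20 adaptors and effectors, 4 of 15 partners, 5 of 13 negative regulators and 0 of 14 proteases. On the substrate and invasive growth lists below, 1 of 7 and 2 of 14 were. The lists were chosen with earlier results known, so nothing is read from these counts.

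Of 7 genes whose products matriptase or prostasin can cut, 2 had higher and 5 lower values, with a median of -0.14. Scnn1g, a subunit of the epithelial sodium channel, differed by 0.52 ± 0.28, and F2rl1, which encodes the protease-activated receptor PAR2, by -0.67 ± 0.57. Of 14 tested genes of the invasive growth response, 8 had higher and 6 lower values, with a median of 0.03. The transcription factor genes Snai1 and Snai2 differed by 0.80 ± 0.36 and 0.60 ± 0.36. Of these list medians 4 changed sign with an array left out. Without CD109-/- replicate 1 the receptor partners stood at -0.12, the proteases at -0.04 and the invasive growth genes at -0.43. Without CD109+/+ replicate 2 the partners stood at -0.01, the proteases at -0.14 and the invasive growth genes at -0.16. Without CD109-/- replicate 2 the substrates stood at 0.15, the partners at 0.23, the proteases at 0.47 and the invasive growth genes at 0.45. Without CD109+/+ replicate 1 the partners stood at 0.09, the proteases at 0.38 and the invasive growth genes at 0.23. The adaptors and effectors ranged from 0.00 without CD109-/- replicate 2 to 0.16 without CD109-/- replicate 1. The negative regulators stood at 0.02 without CD109+/+ replicate 1, and at 0.07 without CD109-/- replicate 1, where the inhibitors also stood at 0.07. The inhibitors stood at 0.55 without CD109+/+ replicate 2, and the substrates at -0.29.

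**Figure D4:**
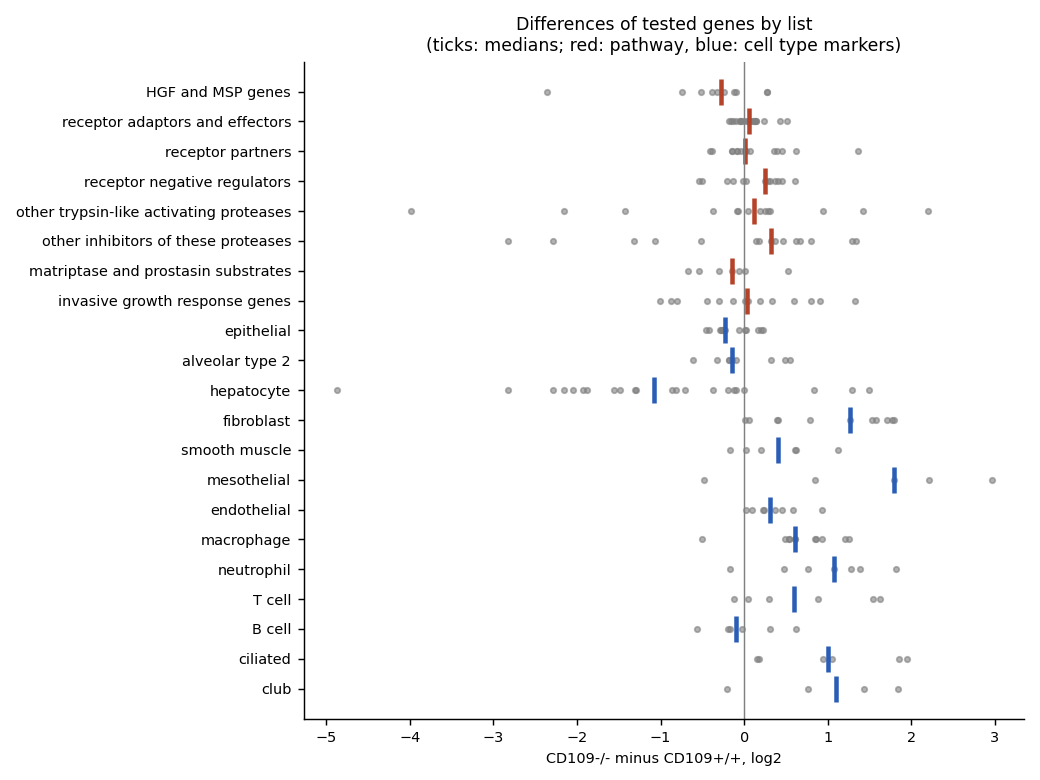
Differences of tested genes (grey points, CD109-/- minus CD109+/+, log2, x axis) in each list (y axis), with the list's median as a red tick for pathway lists and a blue tick for cell type markers. The median is -0.28 for the 10 HGF and MSP genes, with Mst1 the lowest at -2.36, -1.08 for the hepatocyte and 1.27 for the fibroblast list.

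The remaining marker lists place these values in the tumours as sampled. Medians were 1.80 for 5 mesothelial, 1.09 for 4 club cell, 1.08 for 7 neutrophil, 1.00 for 6 ciliated, 0.59 for 6 T cell, 0.40 for 6 smooth muscle and 0.30 for 8 endothelial genes. They were -0.10 for 6 B cell, -0.14 for 9 alveolar type 2 and -0.23 for 13 epithelial genes. The mesothelial median, with 4 genes higher and 1 lower, rested on dim signals. It was 0.18 with probes well above background on all 4 arrays and 0.41 with normexp. The brightest mesothelial gene, Msln, differed by -0.48 ± 1.18. The summed mesothelial level was 5.48 and 3.05 in CD109-/- tumours, against 6.06 and 3.38 in CD109+/+ tumours. Several of the list medians rested on single arrays. With CD109+/+ replicate 1 left out they were 0.91 for mesothelial, 0.23 for club cell, 0.06 for ciliated, 0.49 for endothelial, -0.33 for B cell and 0.05 for epithelial genes. With CD109+/+ replicate 2 left out they were 2.68 for mesothelial, 0.59 for neutrophil, 1.91 for ciliated and 0.17 for B cell genes. With CD109-/- replicate 1 left out the ciliated median was 1.89, the endothelial 0.48, the B cell 0.15 and the epithelial -0.38. With CD109-/- replicate 2 left out they were 1.12 for mesothelial, 0.14 for ciliated, 0.17 for endothelial, -0.28 for B cell, -0.08 for alveolar type 2 and 0.30 for epithelial genes. The epithelial median was -0.39 with CD109+/+ replicate 2 left out. The part of cell mixture in the values of the 10 genes was not tested.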

How the data were processed

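Total RNA (100 ng) was labelled with Cy3 and hybridised to Agilent arrays with a single dye, as stated in the labels' protocols. Per the file headers, the authors read the scans with Feature Extraction 12.1.0.3, which gave intensity values on a linear scale, background-subtracted and detrended but not scaled between arrays. A deposited table of processed intensity values equalled that signal times 1 constant per array and served as an alternative. All 4 arrays lay on 1 slide and shared 1 scan, so neither could act as a batch.

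Of 59305 spots without controls, 58 to 73 per array carried an outlier mark and were left out. Spots of a probe were averaged as log2 signal minus the array's 75th percentile. A probe was tested when well above background on both arrays of a genotype. Gene names came from matching accessions to RefSeq genes of assembly GRCm38.p6, another build than that of the arrays, and 22039 of 56605 stayed unnamed. A gene was represented by its brightest tested probe. The comparison of genotypes used limma 3.58.1 (lmFit, eBayes; R 4.3.3) with no covariate and two-sided p-values adjusted by Benjamini-Hochberg over all tested probes or genes, and standard errors come from the fit by probe. A bound ("at least") sets the brighter mean against, per dim array, the higher of the probe's value and the lowest well above background. The fit was tested on simulated data.

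The 10 genes and all lists were chosen with earlier results of these data known. Named were all probes of the 10 genes, Cd109, the genes next to Mst1, the 5 nearest to Mst1, the 2 largest absolute moderated t of each pathway list, and marker genes by level, with further marker genes added after their values were seen. Alternatives were normexp (on median signals, since mean signals were not used here), quantile and median scaling, the authors' values, other filters, a variance trend, the mean of a gene's probes, a replicate block, sex as a covariate and leaving out each array.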

Additional observations from a re-analysis of the deposited data

How the results depend on the processing

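With 2 arrays per genotype, the number of arrays limits every value. Calls stayed at 0 by gene under all alternatives run, with 554 to 1939 genes at an unadjusted p under 0.05 when 1 array was left out against 1221 on all 4. Calls by probe ranged from 0 to 2 when 1 array was left out, the 2 arising without CD109-/- replicate 2. The replicate numbers came with no statement that they pair samples, and deviations of same-numbered arrays correlated at 0.35. With the replicate block 0 probes and 0 genes were called, and 1901 genes had an unadjusted p under 0.05. Mst1 was lower in all 14 alternatives, and moved by more than the replicate SD only with normexp, at -1.58. Hgf ranged from -2.42 to 0.93 when 1 array was left out, and Spint1 was -0.0946 as the mean of its probes. The cause of these shifts was not tested. Mst1r, Met and Hgfac turned sign when single arrays were left out, from -1.60 to 1.41, -0.02 to 0.56 and -0.55 to 0.31. St14, Hpn, Prss8, Spint1 and Spint2 kept their sign in all alternatives run. Prss8 was only -0.0009, however, with sex as a covariate and without CD109-/- replicate 1. Of the 20 lists, 13 kept the sign of their median throughout.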

Other observations

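Some genes of the protease, inhibitor and invasive growth lists, chosen here after their values were seen, varied between samples more than between genotypes. Habp2, which encodes a plasma serine protease, stood at -4.95 and 2.92 in CD109-/- tumours, against 3.55 and 2.40 in CD109+/+ tumours, so it was low on CD109-/- replicate 1 alone. Tmprss6, the gene of matriptase-2, stood at 0.13 and -2.72 in CD109-/- tumours, against -2.22 and -4.78 in CD109+/+ tumours. Ambp, the gene of the Kunitz-type inhibitor bikunin, stood at 3.71 and -4.61 in CD109-/- tumours, against -1.73 and -1.75 in CD109+/+ tumours, with both CD109+/+ values between them. Spp1, the osteopontin gene, stood at 7.26 and 3.14 in CD109-/- tumours, against 6.41 and 6.00 in CD109+/+ tumours.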
